A study of Drosophila simulans x Drosophila sechellia and Drosophila simulans x Drosophila mauritiana and Drosophila mauritiana x Drosophila simulans with 63 samples.

Results

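Transcripts of the core Wnt signalling pathway were followed in single embryos of *Drosophila simulans* (*sim*), *D. sechellia* (*sec*) and *D. mauritiana* (*mau*) and of their hybrids. The genes were chosen by their *D. melanogaster* symbols, and 7 of the 9 looked for were found in all 3 tables of orthologous genes: *fz* and *arr* (receptors at the cell surface), *dsh*, *sgg* and *arm* (cytoplasm), and *lgs* and *pygo* (nucleus). *Axn* and *Apc2* were not analysed here. The tables list 10955 genes for *sim* and *mau*, 10733 for *sim* and *sec* and 10555 for *sec* and *mau*.

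In this pathway a secreted Wnt ligand, in the embryo mainly Wingless, binds the receptor Frizzled together with its coreceptor Arrow, an LDL receptor-related protein. Without ligand, a complex that contains Axin, APC and the kinase Shaggy (GSK3) phosphorylates Armadillo, the fly β-catenin, which is then degraded. Dishevelled relays the bound receptor's signal to that complex, Armadillo accumulates, and in the nucleus it joins Pangolin (TCF) together with Legless (BCL9) and Pygopus to activate target genes. In the fly embryo the pathway is best known for segment polarity after gastrulation, and mothers load the egg with mRNA of several of its components. Armadillo is also a part of adherens junctions, and Frizzled and Dishevelled also act in planar cell polarity.

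By the chromosome of the *D. melanogaster* gene, *arm*, *sgg* and *dsh* lie on X, *arr* on 2R, *fz* on 3L, *pygo* on 3R and *lgs* on 4. In the *D. simulans* assembly the exon listed for *arm* (FBgn0188022) spans 1650985 to 1651103 on Scf_X, that for *sgg* (FBgn0196056) 2357239 to 2359363 on Scf_X, and that for *dsh* (FBgn0270641) 10663338 to 10666184 on Scf_X. The exon listed for *arr* (FBgn0197040) spans 10034068 to 10034154 on Scf_2R, and that for *fz* (FBgn0186171) 13934742 to 13936125 on Scf_3L. For *pygo* (FBgn0188009) it spans 26684993 to 26685025 on Scf_3R, and for *lgs* (FBgn0195722) 7193 to 7806 on Scf_ICT25.

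The 63 embryos were collected at stage 2, when the mRNA of the embryo comes from its mother, and at late stage 5, the end of cellularization, when the embryo's own genome is also transcribed. At stage 2 there were 15 embryos of F1 hybrid mothers mated back to males of the species of the mother's own mother, 3 each of (*sim* x *mau*) x *sim*, (*mau* x *sim*) x *mau*, (*sim* x *sec*) x *sim*, (*sec* x *mau*) x *sec* and (*mau* x *sec*) x *mau*, so that both alleles in the egg were transcribed in 1 hybrid mother. At stage 5 there were 30 F1 hybrid embryos, 6 each of *sim* x *mau*, *mau* x *sim*, *sim* x *sec*, *sec* x *mau* and *mau* x *sec* with the mother named first, labelled XX or XY. The 18 parental embryos, 3 for each species and stage, have no known sex. Each species is 1 laboratory line, a *white* line for *D. simulans* and *D. mauritiana* and a wild-type line for *D. sechellia*, so a species difference is a difference between these lines. The methods point to an earlier study as the likely source of the parental embryos, and levels of hybrids are therefore not tested against levels of parents.

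A value is the number of poly(A)-selected reads that cover variant sites between 2 species and carry 1 allele, summed over a gene and scaled by upper quantile normalization. In parental embryos the level is that of the species' own allele, and in hybrids the sum of both alleles. The allele-assigned reads of 1 embryo numbered between 2146524 and 7044646. The number of sites differs between genes and species pairs (in the main mappings, a median of 79 for *arr* and 9 for *arm* between *sim* and *mau*), so levels were compared neither between genes nor between pairs. Reads were mapped to both genomes of a pair. Unless the other mapping is named, values are from the *D. simulans* genome in both pairs that include *sim*, and from the *D. sechellia* genome for *sec* and *mau*. *sgg* had 0 reads in all embryos when mapped to *D. sechellia*, in either pair, and is given for *sec* and *mau* from the *D. mauritiana* mapping, where it enters no count of members. Tests between groups were limma fits on log2(value + 1) over all genes, two-sided, and adjusted p is the Benjamini-Hochberg value over all genes tested, with a threshold of 0.05. The labels do not say whether embryos of a group came from separate mothers, so p-values measure the spread between single embryos only. With whole embryos, fewer cells expressing a gene and less RNA per cell cannot be told apart.

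Reads given to the wrong species in parental embryos measure the error of the allele calls. In the main mappings, summed over the 6 embryos of a species, 6 combinations of gene, species and pair had over 1% of such reads, and the rest at most 0.489%. In *sec* embryos of the pair with *mau* 11.8% of *arm* reads were called *mau*, and in *sec* embryos of the pair with *sim* 2.70% of *sgg* and 1.07% of *dsh* reads were called *sim*. In *mau* embryos 5.14% of *sgg* and 1.32% of *fz* reads were called *sim* in the pair with *sim*, and 1.71% of *fz* reads were called *sec* in the pair with *sec*. In the other mappings the share was 12.47% for *arm* in *sec* embryos and 16.3% for *dsh* in *sim* embryos mapped to *D. mauritiana*.

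As a check of the stage labels, all 7 zygotic blastoderm genes of a fixed list (*eve*, *ftz*, *Kr*, *sna*, *zen*, *kni* and *slp1*) were higher at stage 5 in each species, and of 5 egg transcripts (*bcd*, *nos*, *osk*, *gcl* and *swa*) 4 were lower in *sim* and in *mau*, where *nos* did not pass, and 5 in *sec*. Of 6 genes of the mother's follicle cells and fat body (*Cp36*, *Cp38*, *Vm26Ab*, *Yp1*, *Yp2* and *Yp3*), at most 1 had enough reads to be tested, *Yp3*. The sex labels matter for *arm*, *sgg* and *dsh*, because an XY embryo has its only X from its mother. The share of X-linked reads that carried the father's allele was 19.5–24.4% in embryos labelled XX of *sim* x *mau*, *mau* x *sim*, *sim* x *sec* and *sec* x *mau*. In embryos labelled XY it was 4.13–4.35% in *sec* x *mau* and 0.274–0.990% in the other 3 of these crosses. In *mau* x *sec* the embryos labelled XX had 1.09%, 11.97% and 20.8% (replicates 4 to 6), and those labelled XY 0.799%, 20.8% and 21.2% (replicates 1 to 3). Labelled XX replicate 4 and labelled XY replicates 2 and 3 went against their labels, and labelled XX replicate 5 lay between the classes. The results of X-linked members that use these labels in crosses of *sec* and *mau* are given with and without these 4 embryos, a choice made after the data were seen. In the plot of these shares by embryo, the other 26 embryos fall where their labels put them.

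The first question was how the mRNA of the pathway changes between the maternal and the blastoderm pool. Transcripts of *arm*, *sgg* and *arr* were higher at stage 5 than at stage 2 in all 3 species, those of *lgs* and *pygo* were lower in all 3, those of *fz* were lower in *sim* and *mau*, and *dsh* did not pass the test in any. Most genes change between these stages: 84.6% of all genes tested were called in *sim*, 82.4% in *sec* and 84.4% in *mau*. Against this background, 6 of 7 members in *sim*, 5 in *sec* and 6 in *mau* were called, which is near the share of all genes. Higher at stage 5 were 50.3% of all genes and 3 members in *sim*, 50.2% and 3 members in *sec*, and 51.2% and 3 members in *mau*, and lower were 34.3% and 3 members in *sim*, 32.2% and 2 members in *sec*, and 33.2% and 3 members in *mau*. The median log2 change of all genes was 0.44 in *sim*, 0.50 in *sec* and 0.51 in *mau*.

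*arm*, which encodes the β-catenin itself, had 5443, 6639.9 and 6028 at stage 5 in *sim*, against 859.6, 922 and 648 at stage 2. This was a 7.51-fold higher level (log2 2.91, SE 0.15, adjusted p = 1.58e-08). In *mau* its level was 6918, 6938 and 7522 at stage 5, against 1279, 1456 and 1130.4 at stage 2 (5.55-fold, adjusted p = 6.05e-08). The stages did not overlap, and the same held in *sec*, where *arm* was 5.94-fold higher (adjusted p = 3.85e-07) with 6343, 9947 and 8939 at stage 5, against 1115, 1715 and 1403 at stage 2. *sgg*, the GSK3 kinase that marks Armadillo for degradation, had 1805, 2030.0 and 2444 at stage 5 in *sim*, against 478, 489 and 410.0 at stage 2 (4.53-fold, adjusted p = 7.83e-08). It was 5.27-fold higher in *sec* (2728, 2988 and 3211 at stage 5, against 480.4, 622 and 597 at stage 2; adjusted p = 7.66e-08) and 3.46-fold higher in *mau* (1586, 1899.6 and 1832 at stage 5, against 533, 538 and 462 at stage 2; adjusted p = 4.05e-07). The transcripts of the pathway's effector and of the kinase that counters it were both higher in every stage 5 embryo than in any stage 2 embryo of the same species. *dsh*, which relays the receptor's signal, had 251, 424 and 365 at stage 5 in *sim*, against 279.7, 298 and 241 at stage 2. In *mau* it had 176, 330.4 and 321 at stage 5, against 281, 252 and 239 at stage 2. In *sec* it had 293, 595 and 470.1 at stage 5, against 308, 436 and 359 at stage 2. The stages overlapped in all 3 species, with log2 differences of 0.32 (SE 0.25) in *sim*, 0.26 (SE 0.27) in *sec* and 0.05 (SE 0.25) in *mau* (adjusted p = 0.257, 0.389 and 0.865).

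The receptor and its coreceptor moved in opposite directions in *sim* and *mau*. *arr*, the coreceptor, had 3033, 2894 and 2855 at stage 5 in *sim*, against 554, 725 and 346 at stage 2, a 5.64-fold difference (log2 2.50, SE 0.23, adjusted p = 1.56e-06). In *mau* the values were 2073, 1701 and 1478 at stage 5, against 615, 770.3 and 696 at stage 2 (2.51-fold, adjusted p = 0.00028), and in *sec* 2072, 2056 and 1605 at stage 5, against 759, 1159.9 and 954 at stage 2 (2.01-fold, adjusted p = 0.00188). All stage 5 embryos lay above all stage 2 embryos of their species. *fz*, the Wnt receptor, had 391, 497 and 624 at stage 5 in *sim*, against 951, 1116 and 926 at stage 2 (log2 -1.005, SE 0.18, adjusted p = 0.000271), and in *mau* 353, 463 and 408 at stage 5, against 971, 1144 and 969.9 at stage 2 (log2 -1.34, SE 0.18, adjusted p = 2.88e-05). In *sec* the stages overlapped, with 849, 593 and 539 at stage 5, against 711, 954 and 922 at stage 2 (log2 -0.40, SE 0.22, adjusted p = 0.113). Without *sec* stage 5 replicate 1, the highest of its group, this difference was called (adjusted p = 0.0268).

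The nuclear cofactors were lower at stage 5. *pygo*, whose protein reads the histone tail beside the Armadillo complex, had 178, 211 and 153 at stage 5 in *mau*, against 797, 588 and 615 at stage 2, a 3.67-fold lower level (log2 -1.88, SE 0.21, adjusted p = 6.69e-06). In *sim* it had 477, 331 and 411 at stage 5, against 867, 1121 and 711 at stage 2 (log2 -1.14, SE 0.21, adjusted p = 0.000367), and in *sec* 457, 479 and 275 at stage 5, against 645, 915 and 582 at stage 2 (log2 -0.84, SE 0.25, adjusted p = 0.00997). With reads mapped to *D. sechellia* the call in *sec* was lost (adjusted p = 0.111). *lgs*, which links Pygopus to Armadillo, had 635, 820.4 and 622 at stage 5 in *mau*, against 998, 1620.3 and 1182 at stage 2 (log2 -0.85, SE 0.20, adjusted p = 0.00176). In *sec* the values were 488, 567 and 644 at stage 5, against 790.2, 1159 and 1189 at stage 2 (log2 -0.87, SE 0.20, adjusted p = 0.00158), and in *sim* 520.1, 614 and 540.1 at stage 5, against 821, 867 and 644 at stage 2 (log2 -0.47, SE 0.20, adjusted p = 0.0425). The call in *sim* was lost when any 1 of 6 embryos was left out of the fit (*sim* stage 2 replicate 1 or 2, *sim* stage 5 replicate 1 or 3, *mau* stage 2 replicate 3 or *mau* stage 5 replicate 1; adjusted p up to 0.131) and with the *D. mauritiana* mapping (adjusted p = 0.109). No member had a log2 change above 3, the limit the study set for mostly zygotic genes.

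The stages were also set apart in the hybrids, whose embryos are none of the parental ones, by the sum of both alleles in stage 5 F1 embryos and in eggs of the F1 mothers of the same cross, while the mothers of the stage 5 embryos were of a single species. These 33 exact permutation tests over embryos were added after the data were seen (two-sided, p not adjusted), and the smallest p that 6 against 3 embryos allow is 0.0238. *arm*, *sgg* and *arr* were higher at stage 5 and *lgs* and *pygo* lower in every cross read, each without overlap and at that p. The share of all genes without overlap in these crosses was not computed. In the parental species 82.4% to 84.6% of all genes were called between the stages. *arm* averaged 7997 ± 723 in F1 embryos of *sim* x *mau*, against 1297 ± 144 in eggs of (*sim* x *mau*) x *sim* (SD, n = 6 and 3), and over the 5 crosses its fold ranged from 5.60 to 6.16. *arr* averaged 1783 ± 215 in F1 embryos of *sim* x *mau*, against 505 ± 115 in eggs of (*sim* x *mau*) x *sim*, with folds of 2.26 to 3.57, and *sgg* 1918 ± 175 in F1 embryos of *sim* x *mau*, against 555 ± 35.1 in eggs of (*sim* x *mau*) x *sim*, with folds of 2.73 to 3.44 over 3 crosses. These 3 genes had the direction seen in the parental species in each cross. *pygo* averaged 431 ± 40.6 in F1 embryos of *mau* x *sim*, against 1485 ± 354 in eggs of (*mau* x *sim*) x *mau*, and its level was lower by 1.66 to 3.39-fold over the crosses. *lgs* averaged 426 ± 44.5 in F1 embryos of *sim* x *mau*, against 772 ± 64.1 in eggs of (*sim* x *mau*) x *sim*, and was lower by 1.62 to 1.88-fold. *fz* averaged 278 ± 52.4 in F1 embryos of *mau* x *sim*, against 968 ± 179.8 in eggs of (*mau* x *sim*) x *mau*, and was lower by 1.42 to 3.49-fold, with overlap in *sim* x *sec* and *sec* x *mau* (exact permutation p = 0.0476 in each). *dsh* overlapped between the stages in each cross, with exact permutation p from 0.238 to 0.881. Leaving out 1 embryo changed the sign of no log2 difference of the other 6 genes. In the other mapping *pygo* in *sec* x *mau* also overlapped (exact permutation p = 0.0476).

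**Figure D1:**
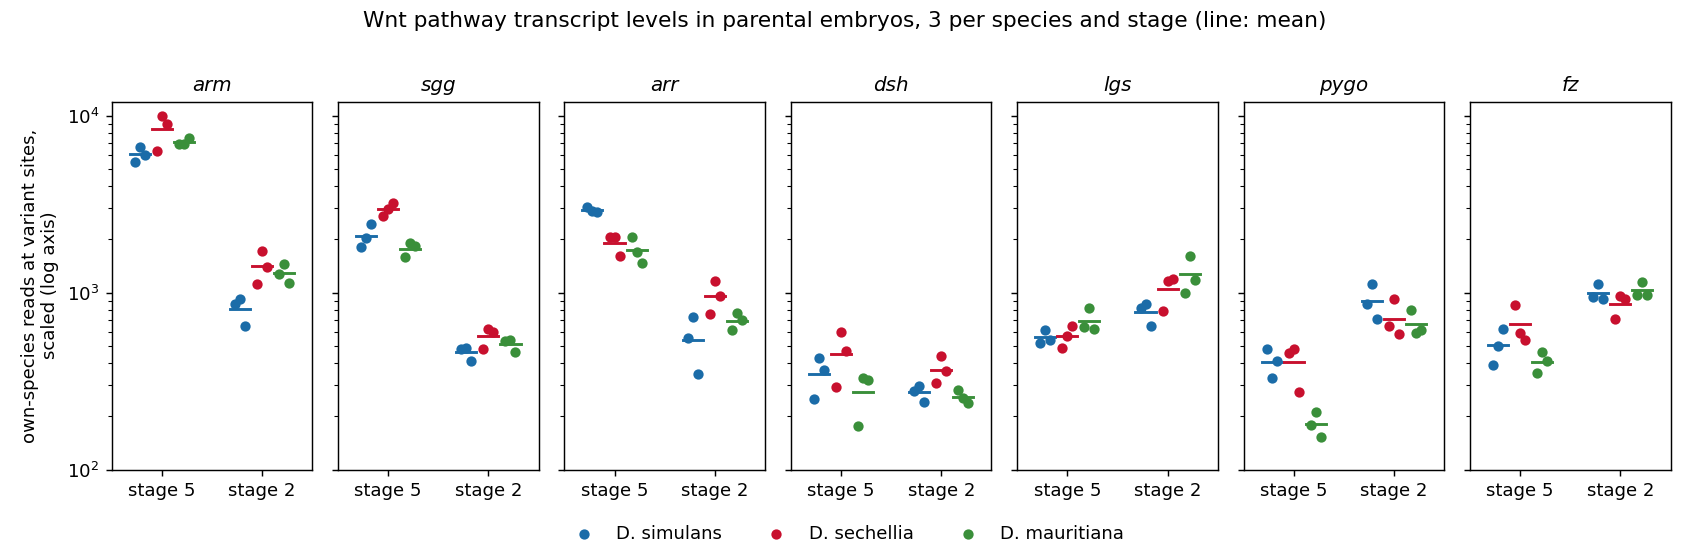
Level of each of the 7 genes (upper quantile scaled value, log axis) in single parental embryos at stage 5 and stage 2, by species; each point is 1 embryo, 3 per species and stage. *D. sechellia* values come from its pair with *D. simulans* and rest on other variant sites than the other points. The stage 5 points of *arm*, *sgg* and *arr* lie above all stage 2 points of the same species, those of *pygo* and *lgs* lie below them, and those of *dsh* overlap them.

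The stage changes were also compared between species, in an interaction test chosen after the values above had been seen. Of all genes, 25.1% differed in their stage change between *sim* and *mau*, 27.6% between *sim* and *sec* and 20.4% between *sec* and *mau*. Among the members *arr* alone passed: its log2 change was larger in *sim* than in *mau* by 1.17 (SE 0.33, adjusted p = 0.0261) and larger in *sim* than in *sec* by 1.46 (SE 0.33, adjusted p = 0.00726). The *arr* change in *sec* minus that in *mau* was -0.30 (SE 0.30, adjusted p = 0.539). The *sim* embryos enter both comparisons that passed.

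Of the 40 other pathway genes listed, 20 of 28 tested were higher at stage 5 and 6 lower in *sim*, 17 of 30 were higher and 10 lower in *sec*, and 18 of 29 were higher and 7 lower in *mau*. Of all genes tested, 50.3% were higher and 34.3% lower in *sim*, 50.2% higher and 32.2% lower in *sec*, and 51.2% higher and 33.2% lower in *mau*. All ligands tested were higher in *sim* (2) and *sec* (3), as were 2 of 3 in *mau*, and *Notum* and *en*, a secreted inhibitor and a target gene, were higher in every species. Of the 6 other receptors tested, 5 were higher and 1 lower in *sim* and in *mau*, and 4 were higher and 2 lower in *sec*. *nkd*, an inducible antagonist that binds Dishevelled, had a mean of 3000.0 at stage 5 in *sim*, against 0.186 at stage 2 (log2(value + 1) difference 11.34, adjusted p = 8.2e-10), and of 2258 at stage 5 in *mau*, against 1.38 at stage 2 (10.15, adjusted p = 2.04e-09). *pan*, the TCF partner of Armadillo, had a mean of 1107 at stage 5 in *sec*, against 3.73 at stage 2 (log2 7.93, SE 0.31, adjusted p = 1.5e-09). Among the other cytoplasmic genes, 3 were higher and 4 lower of the 7 tested in *sim* and in *mau*, and 3 higher and 5 lower of the 8 tested in *sec*.

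The next question was whether the species differ in these levels. Hybrid embryos of the pair and stage were also in these fits and entered the estimate of the spread, beside the parental embryos. Between *sim* and *mau*, 42.3% of all genes and 2 of 7 members were called at stage 2, and 57.0% of all genes and 3 members at stage 5. Between *sim* and *sec*, 33.5% of all genes and 3 members were called at stage 2, and 52.3% of all genes and 1 member at stage 5. Between *sec* and *mau*, 41.8% of all genes and 2 of 6 members were called at stage 2, and 47.1% of all genes and 2 members at stage 5. The share of members called was above that of all genes between *sim* and *sec* at stage 2 and below it in the other comparisons, which was not tested.

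At stage 5 the largest member difference was in *pygo*, which was 2.23-fold higher in *sim* than in *mau*, from the embryo values given above (log2 1.16, SE 0.14, adjusted p = 3.28e-06). In the pair of *sec* and *mau*, *pygo* had 364, 417 and 152 in *sec*, against 182, 179 and 94.4 in *mau*, at stage 5 (log2 0.97, SE 0.31, adjusted p = 0.0186). Here the species overlapped, and the call was lost without *mau* stage 5 replicate 3 or *sec* stage 5 replicate 1 or 2. *arr* at stage 5 was 1.69-fold higher in *sim* than in *mau* (log2 0.75, SE 0.14, adjusted p = 0.000294). In the pair with *sec*, *arr* had 3599, 3525 and 3324 in *sim*, against 2072, 2056 and 1605 in *sec*, at stage 5 (1.83-fold, log2 0.87, SE 0.13, adjusted p = 0.000229). Every *sim* embryo had more *arr* at stage 5 than any embryo of the species it was compared with. At stage 2 *arr* did not pass in any pair: the log2 difference was -0.41 (SE 0.27) for *sim* over *mau*, -0.59 (SE 0.24) for *sim* over *sec* and 0.15 (SE 0.20) for *sec* over *mau* (adjusted p = 0.229, 0.091 and 0.558).

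*lgs* was lower in *sim* and in *sec* than in *mau*. At stage 2 it had 507, 799.9 and 809.8 in *sec*, against 863, 1528 and 1070.3 in *mau* (log2 -0.70, SE 0.22, adjusted p = 0.0226), and at stage 5 it had 368, 371 and 508 in *sec*, against 603, 750.3 and 618 in *mau* (log2 -0.67, SE 0.17, adjusted p = 0.00384). Between *sim* and *mau* the log2 difference of *lgs* was -0.69 (SE 0.19) at stage 2 (adjusted p = 0.0158) and -0.30 (SE 0.12) at stage 5 (adjusted p = 0.0403). These *lgs* calls were lost at stage 2 without *mau* replicate 2 in both pairs, without *sim* replicate 3 or without *sec* replicate 1, and between *sim* and *mau* at stage 5 without *mau* replicate 2 or *sim* replicate 1 or 3. The call between *sec* and *mau* at stage 5 was kept with each embryo left out.

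The remaining calls were at stage 2. *arm* was lower in *sim* than in *mau* (log2 -0.68, SE 0.17, adjusted p = 0.0099) and lower in *sim* than in *sec* (log2 -0.58, SE 0.17, adjusted p = 0.0265). Both *arm* differences depend on the genome used: mapped to *D. mauritiana* the first was -0.37 (SE 0.18, adjusted p = 0.103), and mapped to *D. sechellia* the second had the other sign, 0.34 (SE 0.20, adjusted p = 0.228). At stage 5 *arm* between *sim* and *sec* was -0.32 (SE 0.16, adjusted p = 0.112) in the main mapping and 0.50 (SE 0.17, adjusted p = 0.0355) mapped to *D. sechellia*, so no direction is given for *arm* in this pair, where 12.47% of the *arm* reads of *sec* embryos were called *sim* in the *D. sechellia* mapping. *fz* was higher in *sim* than in *sec* (log2 0.56, SE 0.16, adjusted p = 0.0233) and lower in *sec* than in *mau* (log2 -0.46, SE 0.16, adjusted p = 0.0338), and *pygo* was higher in *sim* than in *sec* (log2 0.63, SE 0.19, adjusted p = 0.0323). Each of these 3 calls was lost in 2 to 4 of the runs that left out 1 parental embryo. Mapped to *D. sechellia*, *fz* at stage 2 had a mean of 669 in *sim* (556 to 753), against 570 in *sec* (448 to 650), and the species overlapped. For *sgg*, *sec* over *mau* had a log2 difference of 0.51 (SE 0.12) at stage 5 (adjusted p = 0.0017) and -0.05 (SE 0.12) at stage 2 (adjusted p = 0.763), both mapped to *D. mauritiana*. The X-linked *arm*, *sgg* and *dsh* were compared between species at stage 5 without matched sexes, because the sex of the parental embryos is not known. The part of the sexes in these differences was not tested. *dsh* was not called in any pair or stage.

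In eggs of F1 hybrid mothers both alleles of a gene come from the same maternal cells, and the question is whether they were deposited unequally. At stage 2 the first-named species held between 41.0% and 63.9% of the reads of each member in every embryo of the main mappings. Of all genes, 36.2% were called in (*sim* x *mau*) x *sim*, 37.2% in (*mau* x *sim*) x *mau*, 41.0% in (*sim* x *sec*) x *sim*, 49.4% in (*sec* x *mau*) x *sec* and 50.6% in (*mau* x *sec*) x *mau*. Called members numbered 2 of 7 in (*sim* x *mau*) x *sim*, 3 of 7 in (*mau* x *sim*) x *mau*, 4 of 7 in (*sim* x *sec*) x *sim*, 3 of 6 in (*sec* x *mau*) x *sec* and 1 of 6 in (*mau* x *sec*) x *mau*.

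*fz* had the largest allele difference. In (*sim* x *sec*) x *sim* the *sim* allele held 60.0%, 63.9% and 61.9% of its reads in the 3 embryos (log2 0.70, SE 0.07, adjusted p = 0.00541), and with reads mapped to *D. sechellia* 52.7%, 62.6% and 56.3% (log2 0.42, SE 0.13, adjusted p = 0.0654). In (*sim* x *mau*) x *sim* the *sim* share of *fz* was 56.3%, 56.0% and 57.5% (log2 0.38, SE 0.04), and in (*mau* x *sim*) x *mau* it was 57.9%, 58.0% and 57.9% (log2 0.46, SE 0.04), and both were called. Mapped to *D. mauritiana*, however, the *sim* share was 47.5%, 49.6% and 50.7% in (*sim* x *mau*) x *sim* (log2 -0.04) and 53.5%, 50.3% and 46.1% in (*mau* x *sim*) x *mau* (log2 -0.00093), and neither was called. In the *sec* and *mau* hybrids the *fz* ratio changed its sign with the mapping, and was 0.15 in the main mapping and -0.38 mapped to *D. mauritiana* in (*sec* x *mau*) x *sec*. Of the 5 crosses, the direction of the *fz* allele difference held in both mappings in (*sim* x *sec*) x *sim* alone.

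*arr* differed in both mappings wherever *sec* was a parent. The *sec* allele held 57.6%, 54.3% and 57.6% of *arr* reads in (*sec* x *mau*) x *sec* (log2 0.38, SE 0.05, adjusted p = 0.00231) and 57.4%, 56.6% and 58.1% in (*mau* x *sec*) x *mau* (log2 0.43, SE 0.05, adjusted p = 0.00139). Mapped to *D. mauritiana* it held 54.2%, 51.6% and 55.0% in (*sec* x *mau*) x *sec* (log2 0.21, adjusted p = 0.0192) and 55.8%, 54.7% and 56.3% in (*mau* x *sec*) x *mau* (log2 0.32, adjusted p = 0.00356). In (*sim* x *sec*) x *sim* the *sim* share of *arr* was 45.4%, 41.0% and 44.1% (log2 -0.38, SE 0.07, adjusted p = 0.0216), and 41.1%, 38.6% and 41.8% mapped to *D. sechellia* (log2 -0.55, adjusted p = 0.00633). The call of the main mapping was lost without any 1 of the 3 embryos. The *sec* allele of the coreceptor was above the other allele in all 9 eggs and in both mappings. Between *sim* and *mau* the *sim* share of *arr* was 52.0%, 53.2% and 52.9% in (*sim* x *mau*) x *sim*, and the test did not pass in either cross.

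The other calls were small. The *sim* allele of *sgg* held 54.0%, 55.5% and 55.8% in (*sim* x *mau*) x *sim* and 54.2%, 53.0% and 54.0% in (*mau* x *sim*) x *mau*, and both calls were lost with the *D. mauritiana* mapping (log2 0.07 in the first cross and 0.0012 in the second). The *sim* allele of *arm* held 46.5%, 45.9% and 43.8% in (*sim* x *sec*) x *sim* and 47.3%, 48.0% and 46.1% in (*mau* x *sim*) x *mau*. *pygo* in (*sim* x *sec*) x *sim* (52.1%, 53.9% and 54.7% *sim*) and *lgs* in (*sec* x *mau*) x *sec* (51.7%, 54.3% and 52.4% *sec*) were also called. Leaving out single embryos ended the 2 *arm* calls, the *pygo* call and the *lgs* call, each in at least 3 runs. With the other genome the *sim* share of summed reads in (*sim* x *sec*) x *sim* was 48.7% for *arm* and 50.9% for *pygo*. There the *sim* share of *arm* in (*mau* x *sim*) x *mau* was 47.6%, and the *sec* share of *lgs* in (*sec* x *mau*) x *sec* 49.5%. *dsh* was not called in any cross at stage 2.

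Whether a species difference is also present between the alleles of a hybrid mother separates *cis* from *trans* changes in the study's scheme: *trans* is used where the species differ and the alleles do not, and *cis* where both differ alike. Here a share counts as different when its 95% interval (a beta distribution, counting error only) lies outside 49–51%. Over 7 genes and 5 crosses, 11 of 35 combinations fell in *trans*, 3 were conserved (*arm* in (*sec* x *mau*) x *sec* and *pygo* in both crosses of *sec* and *mau*), 1 was *cis*, 1 was *cis* + *trans*, 16 changed with the mapping and have no category, 2 had no reads in the main mapping, and 1 was read in 1 mapping only. The share of all genes in each category was not computed by this rule, so the counts do not set these genes apart. In the study, by another model, *trans* was the largest category of change at stage 2 in every comparison. *lgs* was *trans* in 4 crosses by this rule. In 1 of them, (*sec* x *mau*) x *sec*, the limma test between its alleles nevertheless passed, with the *sec* allele higher, as given above. The *sim* share of *lgs* was 38.0% (37.0–39.1) between the *sim* and *mau* parents and 52.4% (50.7–54.0) in (*sim* x *mau*) x *sim*, and 51.6% (50.03–53.3) in (*mau* x *sim*) x *mau*. The *sec* share of *lgs* was 37.9% (36.8–39.1) between the *sec* and *mau* parents, 52.6% (50.95–54.4) in (*sec* x *mau*) x *sec* and 50.6% (48.9–52.3) in (*mau* x *sec*) x *mau*. The higher *mau* level of *lgs* between species was not seen between its alleles in these eggs. *arr* and *pygo* in both crosses of *sim* and *mau*, *dsh* in both crosses of *sec* and *mau* and *arm* in (*sim* x *mau*) x *sim* were the other *trans* combinations. The 1 *cis* combination was *fz* in (*sim* x *sec*) x *sim*, with a *sim* share of 59.4% (58.4–60.5) between parents and 61.6% (60.2–63.0) in the hybrid. Mapped to *D. sechellia* these shares were smaller, 54.0% (52.6–55.4) between parents and 56.6% (54.7–58.5) in the hybrid. The *cis* + *trans* combination was *arr* in the same cross. The intervals leave out the spread between embryos: the limma test between the parents passed for 5 of the 11 *trans* combinations, *lgs* in 4 crosses and *arm* in 1. Reciprocal crosses share their parents and are not independent. No category is given at stage 5, where the mother's mRNA holds her species' allele alone and no member passed the limit for mostly zygotic genes.

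**Figure D2:**
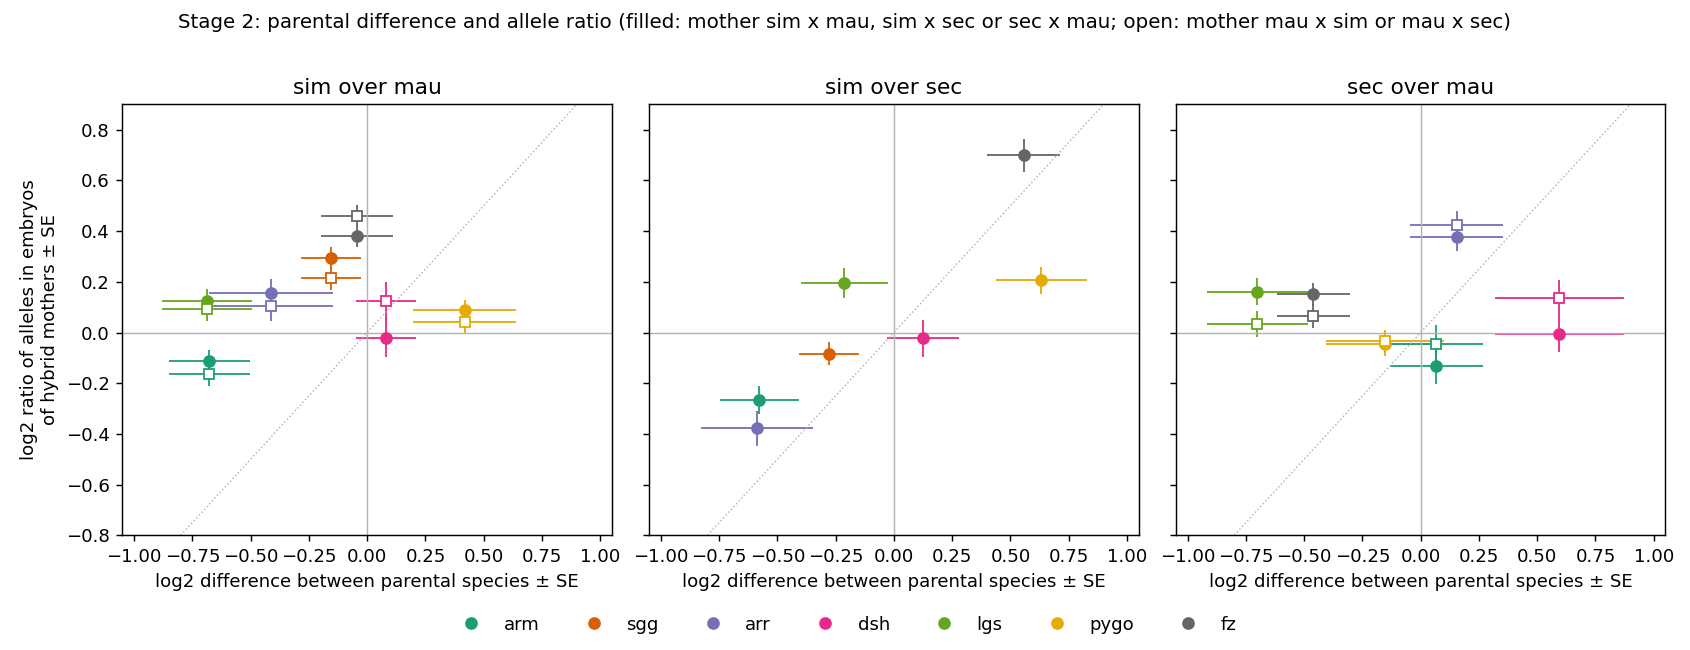
Log2 difference between the parental species at stage 2 (x axis) and log2 ratio of their alleles in eggs of F1 hybrid mothers (y axis) for each gene, first-named over second-named species, with bars of 1 SE; filled and open points are the 2 directions of a cross, and the dotted line marks equal values. *lgs* lies at -0.69 between *sim* and *mau* on the x axis and at 0.13 and 0.09 on the y axis, while *fz* in the *sim* and *sec* pair lies at 0.56 and 0.70, near the dotted line.

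At stage 5 an F1 hybrid can hold mRNA left by its mother, which carries her species' allele alone, beside mRNA that the embryo made from both alleles, and the share of the mother's allele was read in each cross. It was above even for *fz*, *arm*, *sgg*, *lgs* and *pygo* and near even for *arr* and, in embryos labelled XX outside *mau* x *sec*, for *dsh*. Allele differences in either direction were common: 81.7% of all genes had a called one in *sim* x *mau*, 74.2% in *mau* x *sim*, 80.6% in *sim* x *sec*, 74.9% in *sec* x *mau* and 76.4% in *mau* x *sec*. The share of all genes with a called excess of the mother's allele was not counted. Over all genes the median log2 ratio of *sim* over *mau* was 1.01 in *sim* x *mau* and -0.761 in *mau* x *sim*. For *sim* over *sec* it was 1.04 in *sim* x *sec*, and for *sec* over *mau* 1.27 in *sec* x *mau* and -1.33 in *mau* x *sec*. Members called in either direction numbered 6 of 7 in *sim* x *mau*, 5 of 7 in *mau* x *sim*, 5 of 7 in *sim* x *sec*, 4 of 6 in *sec* x *mau* and 6 of 6 in *mau* x *sec*. Without the 4 *mau* x *sec* embryos, 5 of 6 members against 81.8% of all genes were called in *sec* x *mau*, and 4 of 6 against 60.7% in *mau* x *sec*.

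*fz* was almost entirely of the mother's allele. The lowest, median and highest share of the *sim* allele among the 6 *sim* x *mau* embryos was 94.0%, 96.97% and 98.3%, and among the 6 *sim* x *sec* embryos 95.1%, 97.3% and 97.6%. The *sec* allele held 90.3%, 93.3% and 96.7% in *sec* x *mau*. With *mau* mothers the *mau* allele held 76.7%, 87.0% and 90.0% in *mau* x *sim* and 78.0%, 85.3% and 90.5% in *mau* x *sec*. In these 2 crosses the share depended on the genome: mapped to *D. mauritiana* it ranged over 75.7–96.6% in *mau* x *sim* and 87.7–96.97% in *mau* x *sec*. In log2 ratios of the first-named to the second-named species in a pair, *fz* had 4.81 (SE 0.22) in *sim* x *mau*, 4.93 (SE 0.15) in *sim* x *sec*, 3.85 (SE 0.21) in *sec* x *mau*, -2.53 (SE 0.22) in *mau* x *sim* and -2.56 (SE 0.21) in *mau* x *sec*, with adjusted p from 5.03e-10 to 3.26e-07.

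The nuclear cofactors kept a smaller excess of the mother's allele. For *lgs* it held 66.04% ± 4.25 in *sim* x *mau*, 59.8% ± 3.68 in *mau* x *sim*, 64.8% ± 2.13 in *sim* x *sec*, 69.6% ± 2.01 in *sec* x *mau* and 64.0% ± 2.88 in *mau* x *sec* (mean ± SD over embryos, n = 6). For *pygo* it held 60.1% ± 3.28 in *sim* x *mau*, 55.0% ± 4.11 in *mau* x *sim*, 63.9% ± 4.01 in *sim* x *sec*, 65.9% ± 4.98 in *sec* x *mau* and 57.7% ± 4.41 in *mau* x *sec*. All 10 of these ratios were called, and in *mau* x *sim* the lowest embryo had 49.1% for *pygo*, at even. *arr* lay near even: its mother's allele held 54.0% ± 1.24 in *sim* x *mau*, 49.3% ± 1.26 in *mau* x *sim*, 50.1% ± 2.50 in *sim* x *sec*, 55.4% ± 0.993 in *sec* x *mau* and 47.7% ± 1.62 in *mau* x *sec*. It was called in *sim* x *mau*, *sec* x *mau* and *mau* x *sec*. With the other mapping the *sim* over *mau* log2 ratio in *sim* x *mau* was 0.0030 in place of 0.23 and was not called (adjusted p = 0.959), and the mother's allele held 50.1% ± 1.43. In *mau* x *sec* the called excess was that of the father's *sec* allele (log2 0.13, SE 0.05, adjusted p = 0.0446), and it was -0.0076 with the other mapping (adjusted p = 0.899). The *arr* level at stage 5 differed between species by a log2 of 0.75 for *sim* over *mau*, beside *sim* over *mau* allele ratios of 0.23 in *sim* x *mau* and 0.04 in *mau* x *sim*. For *sim* over *sec* the log2 difference in level was 0.87, beside an allele ratio of 0.01 in *sim* x *sec*. With the other mapping these ratios were called and below 0 in *mau* x *sim* (-0.16, adjusted p = 0.0121) and in *sim* x *sec* (-0.22, adjusted p = 0.0371).

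**Figure D3:**
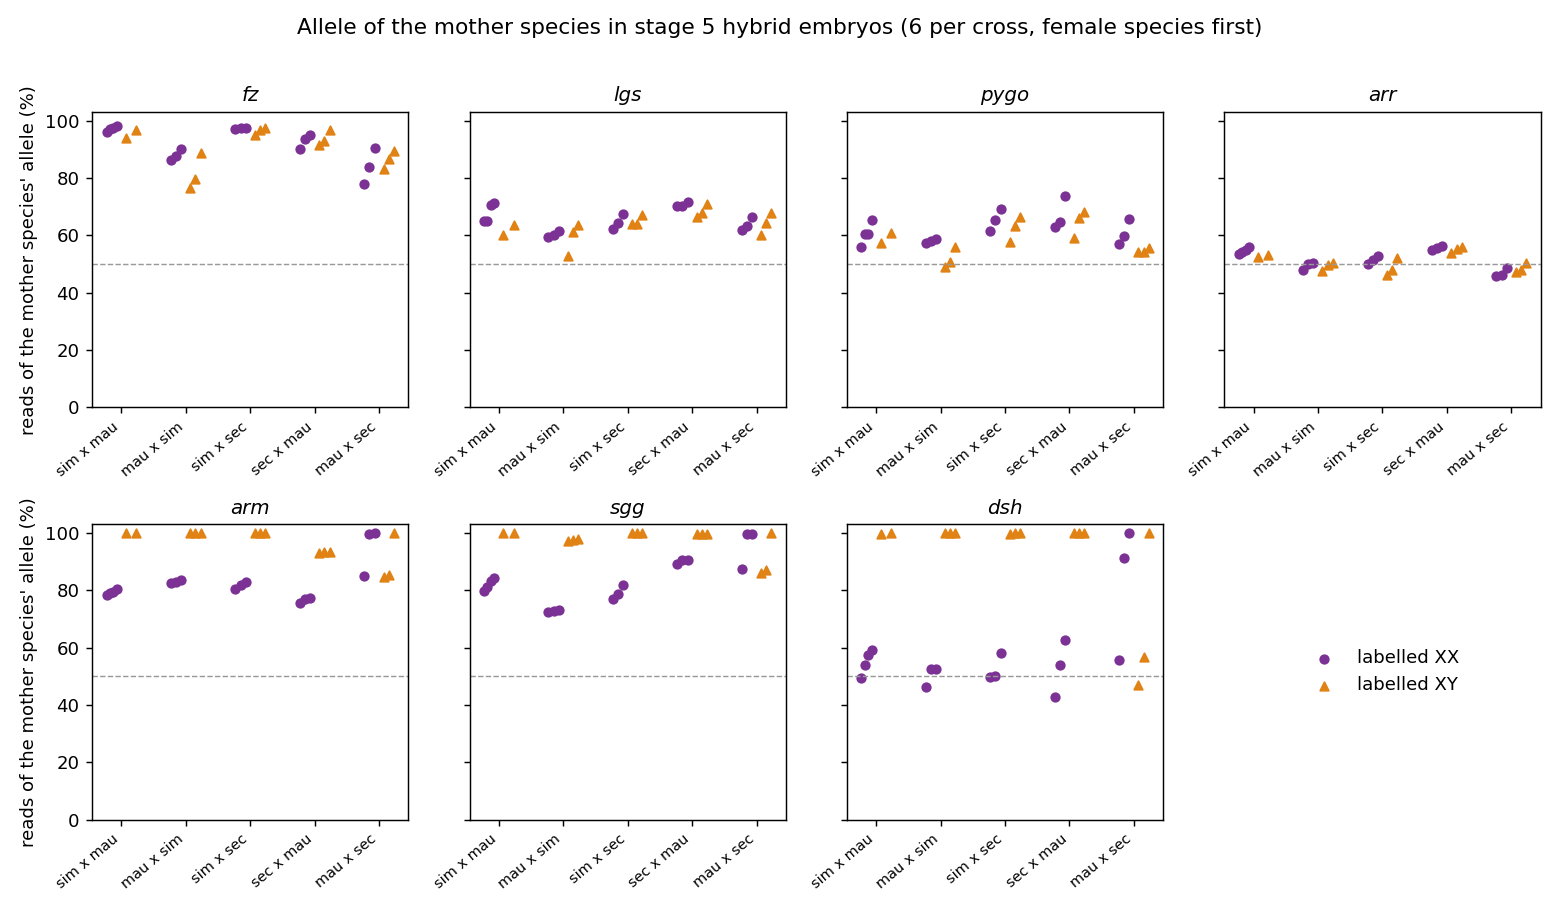
Share of reads (percent) that carried the allele of the mother's species in single F1 hybrid embryos at stage 5, by gene and cross; each point is 1 embryo, with embryos labelled XX and XY marked apart, and *sgg* in the crosses of *sec* and *mau* read from the *D. mauritiana* mapping. The points of *fz* lie at 76.7% or above in every cross and those of *arr* around even, and the X-linked *arm*, *sgg* and *dsh* lie at 93.1% or above in embryos labelled XY outside *mau* x *sec*.

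For the X-linked members the shares come from embryos labelled XX, as in the study. The mother's allele of *arm* held 80.4%, 78.9%, 78.3% and 79.4% in the 4 such embryos of *sim* x *mau*, 82.5%, 83.6% and 82.8% in *mau* x *sim* and 81.8%, 83.0% and 80.4% in *sim* x *sec*. In *sec* x *mau* it held 77.1%, 76.8% and 75.4%, and embryos labelled XY had 93.5%, 93.4% and 93.1%, beside the 11.8% of *arm* reads of *sec* embryos that were called *mau*. For *sgg* the mother's share was 83.4%, 81.1%, 84.4% and 79.9% in *sim* x *mau*, 72.6%, 72.4% and 73.0% in *mau* x *sim* and 78.6%, 81.9% and 76.9% in *sim* x *sec*. The *mau* x *sim* share depended on the genome: mapped to *D. mauritiana* it was 82.0%, 84.3% and 86.7% (lowest, median and highest). In the main mapping 7.23% of the *sgg* reads of *mau* stage 5 embryos were called *sim*. The *sim* x *mau* share ranged over 78.2–84.3% mapped to *D. mauritiana*. In *sec* x *mau*, mapped to *D. mauritiana*, the mother's share of *sgg* was 90.5%, 90.7% and 89.1%. In each of these crosses the excess of the mother's *arm* and *sgg* allele over even was larger than the range of the embryos. *dsh* differed from them: the mother's allele held 57.3%, 49.5%, 54.0% and 59.0% in *sim* x *mau*, 52.7%, 52.6% and 46.1% in *mau* x *sim*, 58.2%, 49.6% and 50.1% in *sim* x *sec* and 62.5%, 42.9% and 53.8% in *sec* x *mau*. In each of these crosses the embryos lay on both sides of even. None of these 4 *dsh* ratios was called (adjusted p from 0.0582 to 0.915).

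The 4 *mau* x *sec* embryos with doubtful labels change several X-linked values. In *mau* x *sec* the mother's share of *arm* was 99.9%, 99.7% and 85.1% in embryos labelled XX (replicates 4 to 6) and 99.98%, 85.2% and 84.6% in those labelled XY (replicates 1 to 3). With all labels taken as given, the *sec* over *mau* log2 ratio of *arm* there was -7.04 (SE 1.43, adjusted p = 0.00583), and without the 4 embryos, where 1 labelled XX embryo remains and its spread is taken from the other cross, -2.52 (SE 0.21, adjusted p = 0.000861). In *sec* x *mau* the *arm* ratio of 1.699 was not called with the 4 embryos in the shared fit (SE 1.43, adjusted p = 0.33) and was called without them (SE 0.12, adjusted p = 0.000291). The *dsh* ratio in *mau* x *sec* was -3.66 (SE 1.26, adjusted p = 0.041) with them and -0.32 (SE 0.46, adjusted p = 0.584) without. For *sgg*, mapped to *D. mauritiana*, the ratio in *mau* x *sec* was -6.46 with them and -2.81 without them.

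Reciprocal crosses hold the same 2 alleles with the mother exchanged, so the log2 allele ratio was compared between the directions of a cross, where a difference above 0 is an excess of the mother's allele. At stage 2 no member passed in limma, also at an unadjusted p under 0.05, with 1 of 5461 genes called for *sim* and *mau* (0.0183%, 294 at an unadjusted p under 0.05) and 0 of 5060 for *sec* and *mau* (0.00%, 336 at an unadjusted p under 0.05). At stage 5, 74.8% of all genes were called between *sim* x *mau* and *mau* x *sim* and 72.0% between *sec* x *mau* and *mau* x *sec* (67.2% without the 4 embryos), and every called member had more of each allele when it came from the mother. Between *sim* x *mau* and *mau* x *sim* 6 of 7 members passed: *fz* with 7.35 (SE 0.31), *arm* with 4.22 (SE 0.11), *sgg* with 3.62 (SE 0.14), *lgs* with 1.53 (SE 0.14), *pygo* with 0.88 (SE 0.13) and *arr* with 0.19 (SE 0.07, adjusted p = 0.0225). The *sgg* value is from the main mapping, where the mother's share in *mau* x *sim* was lower than with the *D. mauritiana* mapping. The *arr* value was not called with the *D. mauritiana* mapping (adjusted p = 0.058) or without *sim* x *mau* replicate 4, and *dsh* had 0.31 (SE 0.18, adjusted p = 0.16). Between *sec* x *mau* and *mau* x *sec*, *fz* had 6.41 (SE 0.30), *lgs* 2.01 (SE 0.11) and *pygo* 1.41 (SE 0.17), and all were called. *arm* had 8.74 (SE 2.019) with all labels taken as given and 4.21 (SE 0.24) without the 4 embryos, and was called in both. *arr* (0.18, SE 0.08, adjusted p = 0.0566) and *dsh* (3.84, SE 1.78, adjusted p = 0.102) did not pass. Without the 4 embryos the *dsh* difference was 0.50 (SE 0.53, adjusted p = 0.459). Of the other pathway genes, 20 of 29 tested for *sim* and *mau* and 17 of 28 for *sec* and *mau* passed, all with an excess of the mother's allele.

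At stage 5 the scaled value of the mother's allele alone was set beside the whole value of eggs of F1 hybrid mothers. The stage 5 embryos did not come from such eggs, because their own mothers were of a single species. In *sim* x *mau* embryos labelled XX the *sim* allele of *arm* had a mean of 6661 ± 306 (SD, n = 4) and the *mau* allele 1747 ± 128, while both alleles together had 1297 ± 144 (n = 3) in eggs of (*sim* x *mau*) x *sim*. In *mau* x *sim* the mother's *mau* allele of *arm* had 7008 ± 414 (n = 3), and both alleles together 1395 ± 255 in eggs of (*mau* x *sim*) x *mau*. The mother's *arm* allele alone had more than the whole *arm* value of these eggs on this scale, which sets each library to the same upper quantile and gives no absolute amount. For *sgg* the *sim* allele had 1653 ± 82.2 in *sim* x *mau*, against 555 ± 35.1 for both alleles in eggs of (*sim* x *mau*) x *sim*. For *fz* the order was the other way, with 335 ± 52.6 (n = 6) for the *sim* allele at stage 5 and 869.8 ± 117 for both alleles in those eggs. These values were set side by side after they were seen and were not tested.

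Reciprocal F1 embryos have the same autosomal alleles, so their levels (the sum of both alleles, X-linked genes included and both labelled sexes together) were also compared, in 13 exact permutation tests over embryos added after the data were seen (two-sided, p not adjusted). The smallest p that 6 against 6 embryos allow is 0.00216. The share of all genes whose level differs between reciprocal crosses was not computed, so these tests do not set the members apart. *pygo* had 593, 632 and 682 (lowest, median and highest) in *sim* x *mau*, against 372, 451 and 464 in *mau* x *sim*. The crosses did not overlap (1.48-fold, exact permutation p = 0.00216), and the *D. mauritiana* mapping gave 1.54-fold (exact p = 0.00216). In *sec* x *mau* it had 537, 620.0 and 912, against 418, 460.3 and 566 in *mau* x *sec* (1.36-fold, exact permutation p = 0.00433), where the crosses overlapped. Without the 4 doubtful embryos the log2 difference was 0.28 in place of 0.45, with 2 *mau* x *sec* embryos left, too few for an exact permutation test to reach the threshold. In both pairs *pygo* was lower in the cross with the *mau* mother. *fz* had 378, 451 and 575 in *sec* x *mau*, against 256, 315 and 365 in *mau* x *sec* (1.49-fold, exact permutation p = 0.00216), with no overlap. Mapped to *D. mauritiana* this fold was 1.26 (exact permutation p = 0.052), and between *sim* x *mau* and *mau* x *sim* the *fz* fold was 1.25 in the main mapping (exact permutation p = 0.0606). *arr* was 1.18-fold higher in *sim* x *mau* than in *mau* x *sim* (exact permutation p = 0.0368), with overlap. This *arr* difference was lost when single embryos were left out (exact permutation p up to 0.0736). The other 9 comparisons in the main mappings had p above 0.05. *sgg* in the crosses of *sec* and *mau* is read from the *D. mauritiana* mapping alone, as 1 of 14 tests there, and had 2267, 2410 and 2810 in *sec* x *mau*, against 1627, 1734 and 1832 in *mau* x *sec* (1.41-fold, exact permutation p = 0.00216), with no overlap.

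Last, embryos labelled XX were compared with those labelled XY of the same cross, since dosage compensation of the X is described in the methods as incomplete at this stage. Of all genes, 4.42% were called in *sim* x *mau*, 6.04% in *mau* x *sim*, 1.79% in *sim* x *sec*, 0.278% in *sec* x *mau* and 0.00% in *mau* x *sec* (limma, with 221 of 5833 genes at an unadjusted p under 0.05 there). Without the 4 doubtful embryos the shares were 0.104% in *sec* x *mau* and 0.0513% in *mau* x *sec*, where 1 embryo of each label remains. The 4 member calls were all of X-linked genes, *dsh* in 3 crosses and *sgg* in 1. The share of X-linked genes called was not computed, so these calls do not set the members apart from other genes on the X. *dsh* had 594, 672, 639 and 662 in embryos labelled XX of *sim* x *mau*, against 381 and 359 in those labelled XY (1.73-fold, log2 0.79, SE 0.09, adjusted p = 0.00215). In *mau* x *sim* it had 551, 449 and 483 in embryos labelled XX, against 339.6, 344 and 337 in those labelled XY (1.45-fold, adjusted p = 0.00566). The sexes did not overlap in these 2 crosses or in *sim* x *sec*, where *dsh* had 705, 719 and 678 in embryos labelled XX, against 382, 373 and 449 in those labelled XY (1.75-fold, adjusted p = 0.0299). The last call was lost without any 1 of the 6 embryos. In *sec* x *mau* it had 429, 540.1 and 364 in embryos labelled XX, against 192, 276 and 221 in those labelled XY (1.93-fold, adjusted p = 0.232), also without overlap, and without the 4 doubtful *mau* x *sec* embryos in the fit the adjusted p was 0.164. In *mau* x *sec* it had 162, 217 and 331 in embryos labelled XX (replicates 4 to 6), against 239, 276 and 305 in those labelled XY (replicates 1 to 3), a log2 difference of -0.26 (SE 0.25) with all embryos and 0.47 (SE 0.36) without the 4, called in neither (adjusted p = 0.9996 and 0.997). The 3 lowest values there, in replicates 4, 5 and 1, belong to the 3 embryos with the smallest share of X-linked reads of the father's allele.

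*sgg* was 1.33-fold higher in embryos labelled XX of *mau* x *sim* (1775, 1853 and 2119, against 1316, 1491 and 1497 in those labelled XY; adjusted p = 0.0314), and this call was lost in 6 of the runs that left out 1 embryo. *arm* differed by 1.19-fold in *mau* x *sim* and 1.17-fold in *sim* x *mau* and was not called in any cross. Whether the folds of *dsh*, *sgg* and *arm* differ from each other was not tested. None of *fz*, *arr*, *lgs* and *pygo* was called between the sexes. Of the 40 other pathway genes *Wnt5*, a ligand on the X, was the 1 called, 1.71-fold higher in embryos labelled XX of *sim* x *mau* (adjusted p = 0.0104).

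**Figure D4:**
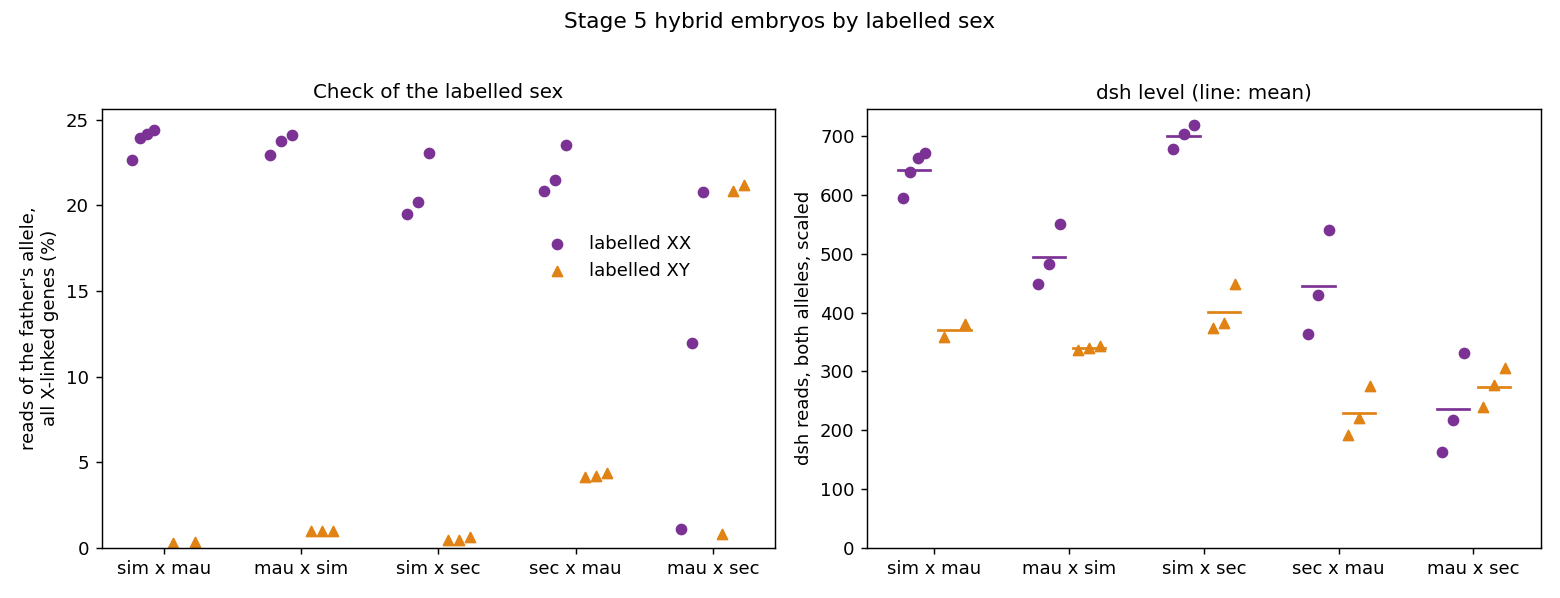
Share of X-linked reads (percent) that carried the father's allele in each stage 5 hybrid embryo by cross and labelled sex, and the *dsh* level (upper quantile scaled value, sum of both alleles) of the same embryos; each point is 1 embryo. In *mau* x *sec* the labelled classes are mixed, and in the other crosses embryos labelled XX lie above those labelled XY of the same cross in both panels.

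The genes whose levels followed each member most closely over the 30 embryos of the *sim* and *mau* pair were found among 6184 genes by Pearson's r of log2(value + 1). They were *Pp1-87B* for *arm* (r = 0.994), *Pax* for *sgg* (r = 0.988), *Pmp70* for *dsh* (r = 0.926), *Prp8* for *arr* (r = 0.986), *CG6791* for *lgs* (r = 0.937), *Trc8* for *pygo* (r = 0.973) and *CG34133* for *fz* (r = 0.960). The embryos share 2 stages and few genotypes, so these values hold the change between stages.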

How the data were processed

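RNA of 63 single embryos was sequenced after poly(A) selection. Per the labels and methods, the authors trimmed reads with cutadapt 1.7.1, mapped them with TopHat2 2.0.13 to both genomes of a species pair, called variants with GATK, assigned reads at variant sites to alleles and added them up for each gene. The values as deposited are a signal: allele-assigned reads scaled by upper quantile normalization. They are whole multiples of a step per library and allele (100% of values within 0.01 of a whole read in 162 combinations), so whole reads were recovered. The plan had edgeR for raw counts and limma for scaled values, so limma was the main test.

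The level or the within-embryo allele ratio was tested with limma 3.58.1 in R 4.3.3 on log2(value + 1) over all genes with a mean of at least 5 in either group or allele, two-sided, at a threshold of 0.05 on the Benjamini-Hochberg adjusted p. In the allele, reciprocal and sex tests, hybrids of the same pair and stage shared 1 estimate of the spread. In the tests between species the hybrid embryos of the pair and stage were also in the fit, as the sum of both alleles. They shared its estimate of the spread with the parental embryos, so these p-values do not rest on parental embryos alone. X-linked allele ratios at stage 5 used embryos labelled XX. Regulatory categories used 95% beta intervals (0.5 added to each allele). Exact permutation tests were run in SciPy 1.17.1. Reads at variant sites carry no molecular identifiers, so intervals cover counting error only. The limma steps were also run on simulated data, and the outcome is not given here. The simulated alleles had counting error alone, without a spread between embryos or an error of mapping, so that run measures neither.

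The members and lists were chosen with earlier results of these data known. The rule for named genes took every member whatever its values, up to 4 other pathway genes per comparison with the largest called log2 difference, and for each member the gene with the highest r. Alternatives were another pseudocount, other filters on low values, the other genome, TMM scaling, edgeR 4.0.16 and DESeq2 1.42.0 on the recovered reads, a replicate block, the other species pair, other category margins and each embryo left out in turn. No column of the authors' own comparisons was used, and sequences were not used here.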

Additional observations from a re-analysis of the deposited data

Results flagged for a closer look

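Among 53 sets of 6 hybrid embryos at stage 5 that were searched for an embryo far from its group, 2 held one, and chance gives about 1 in 20. In *sim* x *sec* replicate 4 the mother's allele held 95.11% of *fz* reads, and in the other 5 embryos 96.75% to 97.56%. In *sec* x *mau* replicate 4 the *pygo* level was 911.6, and in the other 5 embryos 537.1 to 636.3.

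The stage change of *arr* differed between species by an interaction test, with a log2 change larger in *sim* than in *mau* by 1.169 and larger in *sim* than in *sec* by 1.46. The log2 allele ratio at stage 5 differed between reciprocal crosses, always with more of the mother's allele. For *sim* x *mau* minus *mau* x *sim* the differences were 7.347 for *fz*, 4.216 for *arm*, 3.618 for *sgg*, 1.533 for *lgs*, 0.8797 for *pygo* and 0.1938 for *arr*. For *sec* x *mau* minus *mau* x *sec* they were 8.738 for *arm*, 6.409 for *fz*, 2.013 for *lgs* and 1.407 for *pygo*, of which the *arm* value rests on the labels of 4 embryos whose X-linked reads go against or between them. Without those 4 embryos it was 4.21.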

How the results depend on the processing

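Of the limma tests of members, 17 of 21 passed between stages, 13 of 40 between species, 39 of 66 between alleles, 10 of 26 between reciprocal crosses and 4 of 33 between sexes. With 1 embryo left out at a time, calls numbered 16 to 18 between stages, 10 to 15 between species, 36 to 40 between alleles, 9 to 11 between reciprocal crosses and 3 to 4 between sexes. Pseudocount, filter and scaling left each count within 1.5 times, and so did edgeR and DESeq2 except between sexes, where they gave 7 and 8 calls. The genome was the choice that turned directions. With the other genome 3 species calls were lost and 4 gained, beside 2 differences that turned sign. Those were *arm* in *sim* over *sec*, with 0.34 at stage 2 and 0.50 at stage 5. Allele ratios that turned sign and were called in at least 1 mapping were those of *fz* in the eggs of (*mau* x *sim*) x *mau* (-0.00093), (*sim* x *mau*) x *sim* (-0.040), (*mau* x *sec*) x *mau* (-0.51) and (*sec* x *mau*) x *sec* (-0.38), of *arm* in (*mau* x *sec*) x *mau* (0.16), of *lgs* in (*sec* x *mau*) x *sec* (-0.027), and of *arr* at stage 5 in *mau* x *sim* (-0.16), *sim* x *sec* (-0.22) and *mau* x *sec* (-0.0076). Others that turned sign, of *arm*, *arr*, *dsh*, *lgs* and *pygo* in eggs, were called in neither mapping. The cause was not tested. Of 35 combinations, 11 were *trans* (9 to 14 with 1 embryo left out), and 5 with no margin around even. Conserved were 3 (0 to 4 with 1 embryo left out), 0 with no margin, 10 with a margin of 45–55% and 7 with no mapping filter. The replicate number as a block gave 24 of 30 allele calls among the 52 tests it could be run on, 8 reciprocal calls, 17 stage calls and 13 species calls. In 1 of 16 comparisons every same-numbered pair correlated above 0.1, so the numbers were not taken as pairs. No paired analysis was possible because embryos labelled XX and XY share no replicate number in the sex comparison. The interaction test of stage changes between species was not recomputed under these alternatives.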

Other observations

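Of the other pathway genes, 2 had the largest called differences at stage 2, and their values per embryo were read after those differences had been seen. Both genes are given from the main mappings alone, although the choice of genome turned some directions among the members. *drl* encodes Derailed, a Ryk-type receptor that binds Wnt5 in the fly nervous system. In parental embryos at stage 2 it had 3408, 2241 and 1676 reads of the *sec* allele in *sec* embryos, against 0, 0 and 0 reads of the *mau* allele in *mau* embryos of that pair. In the pair with *sim*, *sim* embryos had 0, 2 and 2 reads of *drl*, against 3204, 2113 and 1750 in *sec* embryos. Near absence in the egg was thus read in *sim* and *mau* and high levels in *sec*. In eggs of hybrid mothers the *sec* allele had 1874, 1384 and 1295 reads, against 1, 2 and 0 of the *mau* allele, in (*sec* x *mau*) x *sec*, and 1642, 1710 and 1839 reads, against 1, 0 and 1, in (*mau* x *sec*) x *mau*. In (*sim* x *sec*) x *sim* the *sim* allele had 1, 1 and 1 reads, against 1613, 1347 and 1234 of the *sec* allele. The allele ratio at stage 2 thus had the direction of the species difference in each of these 9 eggs. Between the stages *drl* was lower at stage 5 in *sec* (mean 361 at stage 5, against 1538 at stage 2, log2 -2.08, adjusted p = 9.47e-05). It was higher at stage 5 in *sim* (834 at stage 5, against 0.885 at stage 2) and in *mau* (911 at stage 5, against 0.541 at stage 2). At stage 5 the *sec* allele was the lower one, with a log2 ratio of -0.42 for *sec* over *mau* in *sec* x *mau*, -0.60 in *mau* x *sec* and 0.71 for *sim* over *sec* in *sim* x *sec*.

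*dgo* encodes Diego, a protein of planar cell polarity. At stage 2 it had levels of 10.7, 10.1 and 5.87 in *sim*, against 229, 235 and 182 in *mau* (log2 -4.48, adjusted p = 2.1e-07), and a mean of 9.04 in *sim*, against 497 in *sec* (log2 -5.69, adjusted p = 4.43e-06). In eggs the *sim* allele was lower in each cross with *sim*, with log2 allele ratios of -2.24 in (*sim* x *mau*) x *sim*, -2.70 in (*mau* x *sim*) x *mau* and -2.16 in (*sim* x *sec*) x *sim*. Between *sec* and *mau*, in the main mapping, the species and the alleles differed in opposite directions. Whether this holds with the other genome is not given here. *sec* embryos had 455, 577 and 447 at stage 2, against 215, 255 and 186 in *mau* embryos (log2 1.17, adjusted p = 0.00024), while the *sec* over *mau* allele ratio was -1.55 in (*sec* x *mau*) x *sec* (adjusted p = 0.000419) and -1.45 in (*mau* x *sec*) x *mau* (adjusted p = 0.00048).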
